A study of Mus musculus with 6 samples.

Results

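Immediate early transcription factors were followed in mouse spleen cells that had or had not taken up human mesenchymal stromal cells (MSCs). The members were the 10 genes Fos, Fosb, Fosl2, Jun, Junb, Jund, Egr1, Egr2, Egr3 and Ier2, each found as 1 row by its symbol among the 21847 genes of the deposited raw table. Spleen cells depleted of T cells were cultured for 3 days on cord tissue MSCs loaded with Qtracker, a fluorescent quantum dot label. Sorted mouse cells with the label (Q pos, recorded as having engulfed MSCs) were compared with sorted cells without it (Q neg), with 3 libraries in each group numbered 1 to 3 and described by the series as paired. Both groups therefore shared the same co-culture, and no cells cultured without MSCs were among the groups. The surface gate is recorded as CD11b+ Ly6G- in the sample labels and as Ly6C- in the sorting protocol, so the gate is uncertain. Strain, sex and age of the mice are not part of the labels used here. Nothing in the labels ties a replicate to an animal of its own, so the p-values refer only to the spread among these libraries. In the reported fit that is the spread of the differences within numbered pairs, and part of it may be technical.

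Immediate early genes are switched on within minutes of a stimulus, without new protein synthesis, by kinases that act on factors already bound at their promoters. FOS and JUN proteins are basic leucine zipper factors that pair with each other to form AP-1, while EGR proteins are zinc finger factors that bind GC-rich sites. In macrophages AP-1 and EGR factors are known for their part in growth factor signalling, inflammatory gene expression and differentiation from monocytes, and their RNA also rises when tissues are dissociated and cells are sorted. Most of these messages are short-lived.

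The 250 bases upstream of the start site are shown for Jun and Egr2, the members that passed the test as higher in Q pos cells, and for Fos, the partner of Jun in AP-1. They are RefSeq sequences of build GRCm38.p6, and 7 of the 10 members had an entry, while Egr1, Egr3 and Ier2 had none. Jun lies on the minus strand at chr4:95052223-95052472, Egr2 (the third of 5 annotated start sites) on the plus strand at chr10:67537619-67537868, and Fos on the plus strand at chr12:85473640-85473889. Capitals mark matches to the motifs searched on both strands: the CArG box bound by serum response factor, the CRE TGACGTCA with its core part TGACG, the AP-1 site TGAGTCA together with its variant TGACATCA, the EGR site GCGGGGGCG and the EGR variant GCGTGGGCG, and the ETS core CCGGAAG.
Jun: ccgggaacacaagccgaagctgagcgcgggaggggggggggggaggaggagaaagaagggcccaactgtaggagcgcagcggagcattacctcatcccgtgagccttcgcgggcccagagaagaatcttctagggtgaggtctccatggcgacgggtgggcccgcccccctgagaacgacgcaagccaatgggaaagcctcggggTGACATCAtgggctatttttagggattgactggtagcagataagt
Egr2: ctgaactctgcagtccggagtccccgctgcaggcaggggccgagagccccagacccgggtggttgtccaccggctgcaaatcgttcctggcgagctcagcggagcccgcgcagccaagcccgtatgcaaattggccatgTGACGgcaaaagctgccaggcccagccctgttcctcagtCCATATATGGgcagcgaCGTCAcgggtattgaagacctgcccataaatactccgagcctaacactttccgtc
Fos: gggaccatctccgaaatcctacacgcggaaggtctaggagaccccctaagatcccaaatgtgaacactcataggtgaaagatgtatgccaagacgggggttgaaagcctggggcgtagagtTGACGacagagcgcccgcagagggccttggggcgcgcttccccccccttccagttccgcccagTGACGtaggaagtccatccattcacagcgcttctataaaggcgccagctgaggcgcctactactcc
The Jun window held TGACATCA at 45 to 38 bases before the start, a match found in 2.93% of 32851 promoter windows of the same length. The Egr2 window held a CArG box at 72 to 63 bases before the start. No rule fixed in advance which of its 5 windows was shown: the first held none of the motifs, the second held another CArG box, and the others overlap the window shown and share its box. A CArG box was found in 1.47% of all windows, a share per window and not per gene with 5 of them. Of the other members, the windows of Fosl2 and Fosb each held GCGGGGGCG (either EGR site in 3.06%). The core TGACG, which every full CRE contains, was present in the Fos, Egr2, Junb and Fosb windows and in 17.8% of all windows. No member window held the full CRE (1.55% of all windows), TGAGTCA (4.46%) or the ETS core (6.91%). Bases further upstream were not searched. A motif missing from a window, such as the CArG box from that of Fos, may therefore lie outside it. The RefSeq start of Jund lay upstream of its GENCODE gene, so that window may not be the promoter used.

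Some members, though not the whole group, also shared features of their gene models that the choice of names did not use. The coding transcripts of Jun, Junb, Jund and Ier2 have 1 exon, as do those of 3.28% of 15622 coding genes in the table. The AU-rich nonamer TTATTTATT, a class of element bound by decay factors of the ZFP36 family, occurs after the stop codon in Fos and Fosl2 (1 copy each) and in 7.83% of 15487 genes. On mm10, by GENCODE M21, Jun on chromosome 4 overlaps the antisense gene Junos. Junb on chromosome 8 overlaps Prdx2 on the other strand, and Jund, also on chromosome 8, overlaps the antisense gene Gm11175. The library kit is stranded, but no source says how strand was treated in counting, so reads of these overlapping genes may not be separated.

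Library totals ran from 33943090 to 55506993 estimated counts, and the 10 members took 0.118% to 0.229% of them. Outside Fosb the members had 82 to 28926 counts per library. Replicates 2 and 3 of a group were close to each other, with a largest gap of 0.31 on the log2 scale over the members other than Fosb. Replicate 1 stood apart for most members, though not for Jun and Egr3 in Q pos or Ier2 in Q neg. Over all tested genes with at least 100 counts, the median chi-square between replicates 2 and 3 was 0.867 in Q neg and 2.28 in Q pos, where sampling noise alone gives 0.455, and it was 23.6 to 74.6 between replicate 1 and either of them. Replicates 2 and 3 differed by more than sampling noise and were counted as 2 libraries. A gap beyond sampling noise cannot tell separate samples from repeat preparations of the same cells, so their independence is not known. With them summed into 1 library per group, edgeR called 0 members and 0 genes (4488 at an unadjusted p under 0.05). The summed level of 10 macrophage markers was 357 CPM (counts set to a common scaled library total) in Q neg replicate 1 and 1843 to 1894 CPM in Q neg replicates 2 and 3, against 9468 to 12860 CPM in Q pos libraries, and 8 of the markers rose and 0 fell. Of 12 neutrophil markers 0 rose and 9 fell, with a sum of 2872, 73590 and 73880 CPM in Q neg replicates 1, 2 and 3 and 1369 to 1782 CPM in Q pos. Of 8 B cell markers 0 rose and 7 fell, with a sum of 17700, 7170 and 7219 CPM in Q neg and 729 to 790.1 CPM in Q pos. At most 1 neutrophil marker and no macrophage or B cell marker was at 0 in any library. Their part in the results on the members was not tested, and in bulk RNA fewer cells of a type cannot be told apart from less RNA per cell.

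Among the 10 members, Jun and Egr2 rose and Jund and Egr3 fell in Q pos cells, so the JUN and EGR families each had 1 member that rose and 1 that fell. Egr2 was higher by 1.98 ± 0.25 (standard error) on the log2 scale and Egr3 lower, at -2.45 ± 0.42. Jun was higher by 1.03 ± 0.24 and Jund lower, at -1.11 ± 0.26. Fos, Fosb, Fosl2, Junb, Egr1 and Ier2 did not pass the test. These calls used edgeR's quasi-likelihood test with the replicate number as a block, at a Benjamini-Hochberg adjusted p under 0.05 over all genes. All 10 members were among the 14605 genes tested. Of all tested genes 34.9% were called, 18.5% as higher and 16.3% as lower, so 4 of 10 members, 2 in each direction, is close to the background. The median log2 fold change was 0.17 over the members and -0.01 over all tested genes. The members' median includes Fosb, which could not be assessed, and without Fosb it was the value of Junb, 0.06. With library totals alone 1 member rose and 3 fell, beside 33.5% of all tested genes called. The median was then -0.18 over the members and -0.36 over all genes. Without Fosb the members' median was again the value of Junb, -0.29. For 6 members the CPM values of the groups did not overlap, and the same held for 59.4% of all tested genes.

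Replicates mattered for the calls. With replicate 1 left out, 7 of 10 members were called, Fos, Jun and Egr2 as higher and Fosl2, Jund, Egr3 and Ier2 as lower, but 72.9% of all tested genes were called too. Without replicate 2, and without replicate 3, 0 members passed by edgeR, with adjusted p for Jun, Jund, Egr2 and Egr3 of 0.0595 to 0.228, although each kept its direction.

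**Figure D1:**
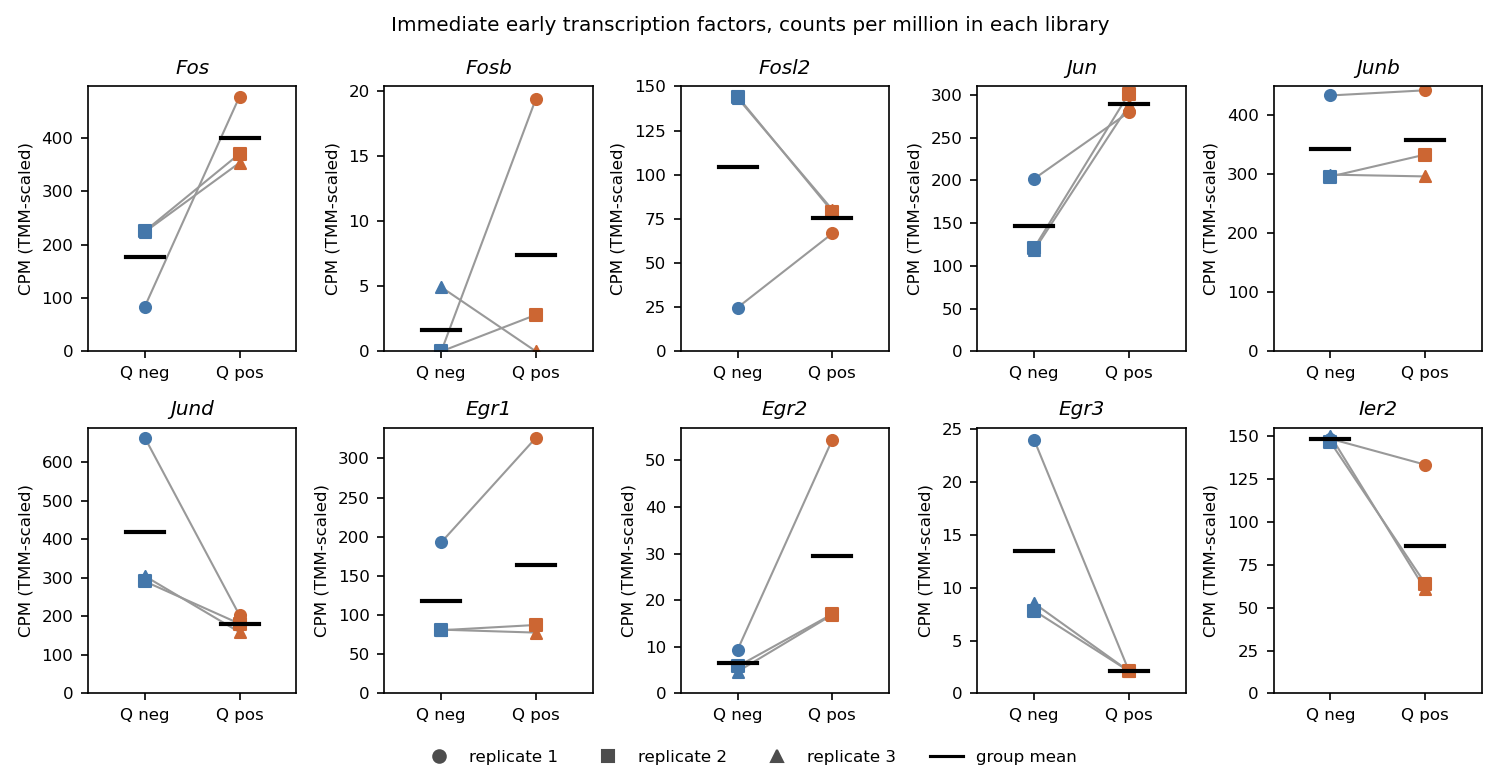
CPM of each member in the 3 Q neg and 3 Q pos libraries, on a linear axis from 0 for each gene. Grey lines join libraries of the same replicate number and black bars are group means. Egr2 was higher and Egr3 and Jund were lower in every Q pos library than in every Q neg library, while Fosl2 went in opposite directions in pair 1 and in pairs 2 and 3.

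**Figure D2:**
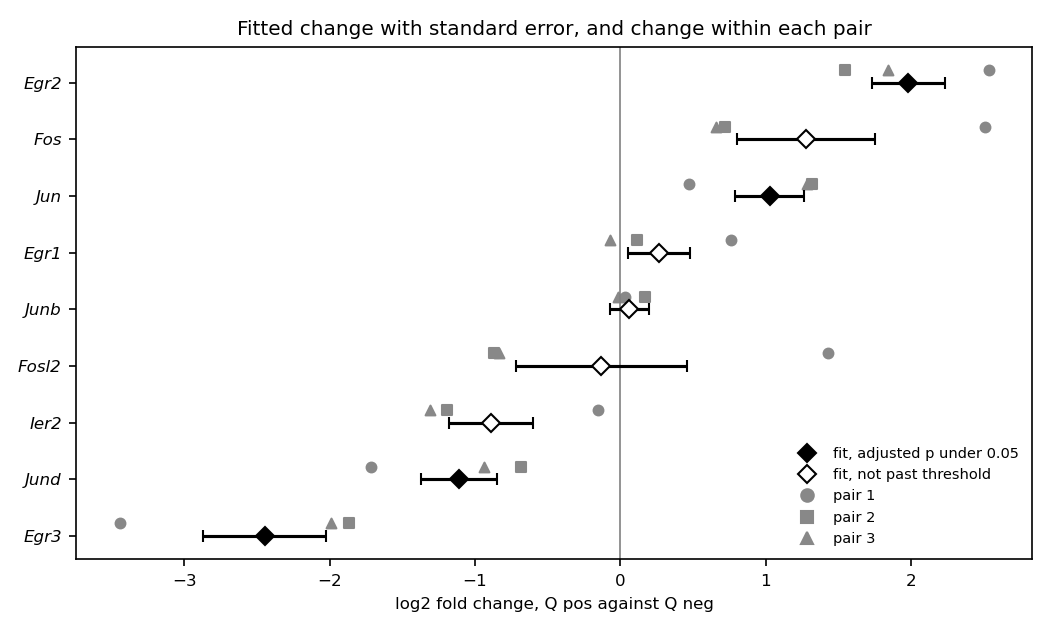
Log2 fold change of Q pos against Q neg for 9 members, as the fitted value with its standard error (diamonds, filled where the adjusted p was under 0.05) and within each numbered pair (grey). Egr2 and Jun lie to the right and Jund and Egr3 to the left in all 3 pairs. Fosb is left out because 3 of its libraries were at 0.

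Of the FOS family, Fos (chromosome 12, 85473890 to 85477273), the prototype partner of JUN proteins, stood at 83.9, 225 and 224 CPM in Q neg replicates 1, 2 and 3 and at 477, 369.9 and 353 CPM in Q pos replicates 1, 2 and 3. Every Q pos library was above every Q neg library, and the difference was largest in pair 1, where the Q neg library was lowest. The fitted log2 fold change was 1.28 ± 0.48, with 2.51, 0.72 and 0.66 in pairs 1, 2 and 3, and it missed the threshold (adjusted p = 0.11). It passed without replicate 1 (0.70, adjusted p = 5.46e-05) and by DESeq2 (1.24, adjusted p = 0.0224). The fit without replicate 1 rests on replicates 2 and 3, whose independence is not known, and called 72.9% of all tested genes. DESeq2 called 3421 genes as higher and 3665 as lower of 14605.

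Fosl2 (chromosome 5, 32135801 to 32157842) encodes FRA2, a FOS relative without the strong activation domain of FOS. It stood at 24.9, 144 and 143 CPM in Q neg and at 66.8, 79.2 and 80.2 CPM in Q pos. Pair 1 was higher in Q pos by 1.43 on the log2 scale, while pairs 2 and 3 stood at -0.87 and -0.84. The fitted value of -0.13 ± 0.59 did not pass (adjusted p = 0.874), and it was -0.84 without replicate 1 (adjusted p = 2.24e-05). That second fit rests on replicates 2 and 3, whose independence is not known, and called 72.9% of all tested genes.

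Fosb (chromosome 7, 19302696 to 19310051), whose protein also pairs with JUN, could not be assessed. Its estimated counts were 0, 0 and 230 in Q neg and 735, 138 and 0 in Q pos. Replicates 2 and 3 thus disagreed in both groups. A value of 0 in one of them and at least 100 counts in the other, in either group, was found for 60 of 21847 genes. A value of 0 in such a table can be a failed estimate, so its fitted fold changes are not read as a change. The edgeR test did not pass (adjusted p = 0.493), while DESeq2 called it higher (adjusted p = 0.0105).

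Of the JUN family, Jun (chromosome 4, 95049034 to 95052222) encodes the strongest activator of the family. It stood at 202, 121 and 118 CPM in Q neg and at 279.5, 301 and 287 CPM in Q pos, a mean of 146.8 ± 47.6 against 289.4 ± 10.9 (SD, n = 3). All Q pos libraries were above all Q neg libraries on this scale, and the differences were 0.47, 1.32 and 1.28 in pairs 1, 2 and 3. With adjusted p = 0.0433 by edgeR Jun was near the threshold. The call was lost with upper quartile factors (0.88, adjusted p = 0.0775) and with library totals alone (0.68, adjusted p = 0.145). On library totals the groups overlapped, at 259, 127 and 125 CPM in Q neg and 249, 266 and 254 CPM in Q pos. Junos, the antisense gene that overlaps Jun, stood at 1.42 to 6.70 CPM in Q neg and 6.64 to 14.9 CPM in Q pos (adjusted p = 0.375).

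Jund (chromosome 8, 70698949 to 70700616), which is often present in resting cells and is less inducible than Jun, stood at 663, 291 and 304 CPM in Q neg. In Q pos it stood at 202, 181 and 159 CPM. All Q pos libraries were below all Q neg libraries, and Q neg replicate 1 was above the mean of the other 2 Q neg libraries by 1.16 on the log2 scale. The change was -1.71, -0.68 and -0.94 in pairs 1, 2 and 3, with adjusted p = 0.045, and with no filter on low counts it was -1.07 (adjusted p = 0.0532). Q neg replicate 1, where Jund was highest, was also the library with the highest sum of B cell markers and the lowest sum of neutrophil markers in its group. Among the Q neg libraries it was also the highest for Jun, Junb, Egr1, Egr2 and Egr3, of which Jun and Egr2 rose in Q pos. It was the lowest for Fos and Fosl2. The part of these cell types in the Jund result was not tested. The overlapping antisense gene Gm11175 had 60 to 329 counts per library.

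Junb (chromosome 8, 84974484 to 84978718), a JUN protein that can oppose Jun at some targets, stood at 433, 296 and 299 CPM in Q neg and at 442, 333 and 296 CPM in Q pos. The groups overlapped, and replicate 1 was the highest library of each group. The log2 fold change was 0.06 ± 0.13 (adjusted p = 0.737), and its sign turned with upper quartile factors (-0.08) and library totals (-0.29). Those scalings moved the median of all genes to -0.15 and -0.36, and relative to that median Junb stood at 0.07 with either. Prdx2, which overlaps Junb on the other strand, rose from 60.1 to 65.1 CPM in Q neg libraries to 118 to 137 CPM in Q pos (adjusted p = 0.0119).

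Because counts of 2 genes in 1 library share its scaling, their ratio does not depend on how libraries were scaled. The log2 ratio of Jun to Jund counts was -1.72, -1.27 and -1.37 in Q neg replicates 1, 2 and 3 and 0.47, 0.74 and 0.86 in Q pos. It was higher in Q pos by 2.18, 2.00 and 2.22 in pairs 1, 2 and 3. Replicate 1 had the lowest ratio in both groups, while the differences within pairs were alike. Since Jun was called higher and Jund lower, the direction of their ratio followed from those calls. The log2 ratio of Jun to Junb was higher in Q pos by 0.44, 1.15 and 1.30 in pairs 1, 2 and 3, so less alike. The log2 ratio of Fos to Fosl2 was higher in Q pos by 1.08, 1.58 and 1.50 in the 3 pairs. The ratio of Fos to Jun had no common direction, with 2.04 in pair 1 and -0.60 and -0.62 in pairs 2 and 3. These ratios are descriptions, with no test.

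Of the EGR family, Egr2 (chromosome 10, 67535475 to 67542188) encodes the zinc finger factor KROX20, known in macrophages as a target of colony stimulating factor and interleukin-4 signalling. It stood at 9.38, 5.80 and 4.68 CPM in Q neg and at 54.5, 17.03 and 16.9 CPM in Q pos. All Q pos libraries were above all Q neg libraries, and replicate 1 was the highest of each group. The change was 2.53, 1.55 and 1.84 in pairs 1, 2 and 3, with adjusted p = 0.0158 by edgeR.

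Egr3 (chromosome 14, 70077203 to 70082614), best known as a factor induced by antigen receptors in lymphocytes, stood at 24.01, 7.84 and 8.53 CPM in Q neg and at 2.17, 2.12 and 2.11 CPM in Q pos. The Q pos libraries lay close together and below all Q neg libraries. The change was -3.44, -1.87 and -1.99 in pairs 1, 2 and 3, with adjusted p = 0.0257 by edgeR. Egr3 was highest in Q neg replicate 1, as were the sums of B cell markers (17700 CPM) and of T cell markers (203 CPM, against 44.9 and 45.9 CPM in Q neg replicates 2 and 3 and 14.9 to 17.2 CPM in Q pos). Of 8 T cell markers 7 fell and 0 rose, and none was at 0 in any library. NK cell markers summed to 89.6, 17.6 and 16.05 CPM in Q neg replicates 1, 2 and 3. Dendritic cell markers summed to 417, 134 and 142 CPM in the same libraries. The sums of macrophage, neutrophil and monocyte markers, and of eosinophil, basophil and mast cell markers, were lowest in replicate 1 among the Q neg libraries. The part of these cell types in the Egr3 result was not tested. Jun, Junb, Jund, Egr1 and Egr2 were also highest in replicate 1 among the Q neg libraries, while Fos and Fosl2 were lowest there.

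Egr1 (chromosome 18, 34859823 to 34864984), the most widely induced member of the family, stood at 193, 80.7 and 81.4 CPM in Q neg and at 326, 87.4 and 77.7 CPM in Q pos. The groups overlapped, and replicate 1 was the highest library in both. The log2 fold change was 0.27 ± 0.21 (adjusted p = 0.372), with -0.08 on library totals alone, where it stood at 0.28 relative to the median of all genes. The log2 ratio of Egr2 to Egr3 counts was -1.36, -0.43 and -0.86 in Q neg and 4.65, 3.01 and 3.00 in Q pos. That of Egr2 to Egr1 was higher in Q pos by 1.78, 1.44 and 1.92 in pairs 1, 2 and 3. Egr2 was thus higher relative to both relatives in every pair. Since Egr2 was called higher and Egr3 lower, the direction of the Egr2 to Egr3 ratio followed from those calls.

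Ier2 (chromosome 8, 84661331 to 84662852) is an immediate early gene of another family, whose nuclear protein has no known DNA-binding domain of the AP-1 or EGR kind. It stood at 149, 147 and 150.3 CPM in Q neg and at 133, 64.1 and 60.6 CPM in Q pos. The Q neg libraries were nearly equal, replicate 1 included, while in Q pos replicate 1 was above the other 2. The groups did not overlap, but the fit missed the threshold, with -0.89 ± 0.29 and adjusted p = 0.0855. It passed with upper quartile factors (-1.03, adjusted p = 0.0491), with library totals alone (-1.24, 0.0296), by DESeq2 (-0.93, 0.0194) and without replicate 1 (-1.24, 1.04e-05).

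Levels of different genes were compared as CPM per kilobase of merged exons, and this is a level, not a change. In Q neg cells the order of means was Jund (174 to 398 over the 3 libraries), Junb (129 to 188), Ier2 (96.3 to 98.8), Fos (35.7 to 95.6), Jun (37.03 to 63.3), Egr1 (18.0 to 43.02), Fosl2 (2.57 to 14.9), Egr3 (1.78 to 5.45), Egr2 (1.38 to 2.76) and Fosb (0 to 0.79). The ranges of neighbours overlapped for Jund and Junb, Fos and Jun, Jun and Egr1, Fosl2 and Egr3, and Egr3 and Egr2. In Q pos cells Fos (150.1 to 203) and Junb (129 to 192) had the highest means, with overlapping ranges, followed by Jund (95.2 to 121) and Jun (87.7 to 94.4). Ier2 (39.8 to 87.7), Egr1 (17.3 to 72.8), Egr2 (4.97 to 16.03), Fosl2 (6.90 to 8.29), Fosb (0 to 3.11) and Egr3 (0.48 to 0.49) came next by their means. The ranges of neighbours did not overlap for Junb and Jund, Jund and Jun, Egr1 and Egr2, or Fosl2 and Fosb. Fosb could not be assessed, as its values of 0 can be failed estimates, so its place in either order is not read as a level. Egr3, above Egr2 by its mean in Q neg, was below it in every Q pos library.

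Within the JUN family, Jund held 61.3%, 51.2% and 52.2% of the summed per-kilobase level in Q neg replicates 1, 2 and 3 and 30.3%, 31.2% and 30.3% in Q pos. The share of Jun was 9.75% to 11.1% in Q neg and 21.9% to 28.7% in Q pos. That of Junb was 29.0% to 37.7% in Q neg and 41.0% to 47.9% in Q pos. None of these shares overlapped between groups, although the CPM values of Junb did. Shares of a family depend on each other, so a lower share of Jund alone raises the others. No background for such shares was computed. Within the EGR genes, Egr2 held 5.39% to 7.94% in Q neg and 17.9% to 21.8% in Q pos, and Egr3 8.28% to 10.6% and 0.551% to 2.11%. Egr1 remained the most abundant EGR member in every library, at 76.1% to 84.6%. Fos held 85.9% to 95.3% of the FOS family in all 6 libraries. These shares do not depend on library scaling, but they rest on annotated exon lengths.

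**Figure D3:**
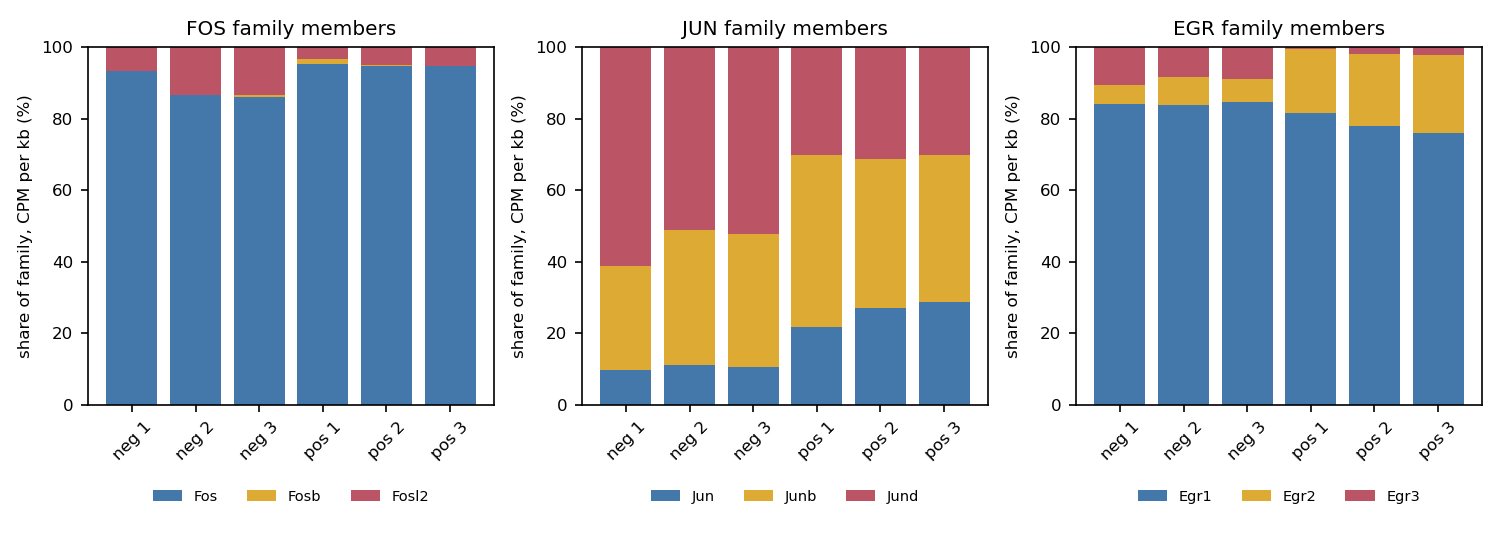
Share of each member in the summed CPM per kilobase of its family, in percent, for each library. Jund takes 51.2% to 61.3% of the JUN bars in Q neg and 30.3% to 31.2% in Q pos. In the EGR bars Egr2 is larger and Egr3 smaller in every Q pos library.

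Other genes of these pathways were read from lists of related factors, inhibitors and kinases. The lists were chosen with earlier results of these data known, so their counts are descriptions. The counts stand against 18.5% of all tested genes called as higher and 16.3% as lower. With library totals alone these shares were 10.8% and 22.7%, and without replicate 1 they were 37.1% and 35.8%. Of 13 other AP-1 and related basic leucine zipper genes 6 rose and 0 fell (median log2 fold change 0.62, against -0.01 over all tested genes). With library totals alone 5 rose and 2 fell, and without replicate 1 8 rose and 3 fell. Atf3, a stress-induced factor that can repress as a dimer, rose from 12.5 ± 4.25 to 131 ± 9.34 CPM (SD, n = 3), with 4.10, 3.18 and 3.06 in the 3 pairs and adjusted p = 0.00972. Maf, a large MAF factor of differentiated macrophages, rose by 3.18 ± 0.42 (adjusted p = 0.0167), and Batf, Batf2 and Maff were among the others that rose. Of the 10 macrophage markers, a list that is not independent of this one, 8 rose. Fosl1, the FOS relative FRA1, was below 1 CPM in every library, at -2.31 ± 0.60 (adjusted p = 0.0546). It passed as lower without the block (0.0152), with upper quartile factors (0.0454), with library totals alone (0.0365), by DESeq2 (0.0239), by limma-voom (0.0462) and without replicate 1 (0.00453). Batf3, a dendritic cell factor, did not pass (0.39 ± 0.93, adjusted p = 0.762), with -1.91 in pair 1 and 1.41 and 1.36 in pairs 2 and 3.

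EGR proteins are held in check by the NAB corepressors. Nab2, itself an EGR target, rose from 33.9 ± 8.77 to 76.3 ± 4.10 CPM, a log2 fold change of 1.20 ± 0.18 (adjusted p = 0.0208). The call was lost with library totals alone (0.85, adjusted p = 0.0629) and on the authors' normalized values (0.98, adjusted p = 0.0658). Nab1 did not pass (0.32 ± 0.15, adjusted p = 0.175; -0.03 with library totals alone), and Egr4 did not reach the count filter.

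Of 25 other immediate early genes tested, 5 rose and 9 fell (median -0.12), and without replicate 1 8 rose and 13 fell. The 3 NR4A nuclear receptors fell: Nr4a1, which is also a marker of patrolling monocytes, from 24.4 ± 11.2 to 9.88 ± 0.621 CPM (adjusted p = 0.0378), and Nr4a2 and Nr4a3, named here after their values were seen, with log2 fold changes of -2.24 and -3.50. Csrnp1, a nuclear factor induced by AXIN1 signalling, fell from 63.5, 56.4 and 57.04 CPM in Q neg to 29.2, 25.6 and 24.0 CPM in Q pos (adjusted p = 0.0104), with almost the same change in each pair (-1.12, -1.14 and -1.25). Myc, the growth regulator, fell by 1.35 ± 0.25 (adjusted p = 0.0304), a call that the fit without the block did not make (adjusted p = 0.299). Klf4, a monocyte differentiation factor, did not pass (0.62 ± 0.89, adjusted p = 0.609), with 2.97 in pair 1 and -0.32 and -0.46 in pairs 2 and 3. The other genes that fell were Klf2, Btg1, Btg2 and Arc, and those that rose were Atf3, Ier5l, Ppp1r15a, Sgk1 and Rhob.

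Among 14 tested inhibitors of MAP kinase signalling and mRNA decay factors, 1 rose and 4 fell (median -0.17), and without replicate 1 5 rose and 6 fell. In either fit the share called was near that of all tested genes (34.9%, and 72.9% without replicate 1). Spred1, which blocks RAS activation of RAF, rose from 20.2 ± 2.85 to 80.1 ± 5.24 CPM (adjusted p = 0.00753). The genes that fell were the phosphatases Dusp2, Dusp4, Dusp10 and Dusp5, the last with -1.96 ± 0.31 (adjusted p = 0.0226). Dusp1, the phosphatase induced together with Fos, stood at 49.4 ± 5.37 and 63.2 ± 8.85 CPM and did not pass (adjusted p = 0.196). Zfp36, or tristetraprolin, which degrades AU-rich messages, did not pass either (-0.28 ± 0.11, adjusted p = 0.122).

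Upstream, 4 of 26 kinases and SRF, TCF and CREB factors rose and 6 fell (median -0.16), against 0 and 7 with library totals alone and 8 and 13 without replicate 1. The share called with all libraries was near the 34.9% over all tested genes. Rps6ka5, the kinase MSK1 that phosphorylates CREB and histone H3 at immediate early genes, fell by 1.76 ± 0.15 (adjusted p = 0.00977), and Mkl1, an actin-regulated SRF coactivator, fell by 1.35 ± 0.13 (adjusted p = 0.0111). Srf itself was among the genes that fell. Of 10 tested heat shock genes, whose RNA can rise with handling, 2 rose and 0 fell (median 0.29), but with library totals alone 0 rose and 1 fell (median -0.06) and without replicate 1 7 rose and 1 fell. The 2 that rose in the fit with TMM and all libraries were the mitochondrial chaperones Hspe1 (0.87 ± 0.13, adjusted p = 0.0199) and Hspd1 (0.70 ± 0.12, adjusted p = 0.0248). In the fit without the block Hspe1 missed the threshold (adjusted p = 0.0533), and both missed it with library totals alone (0.0952 and 0.0893). Hspd1 also missed it on the authors' normalized values (0.0664). The inducible genes Hspa1a and Hspa1b are named here after their values were seen. Hspa1a stood at 1.78 ± 0.55 (adjusted p = 0.0764) and Hspa1b at 0.15 ± 0.38 (adjusted p = 0.771). The part of handling in the members' levels was not tested.

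Of 12 named genes outside the members that passed, 11 lost the call without replicate 2 (Atf3 did not) and 12 lost it without replicate 3. Over all genes edgeR then called 136 as higher and 175 as lower without replicate 2, and 0 without replicate 3 (4209 at an unadjusted p under 0.05).

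**Figure D4:**
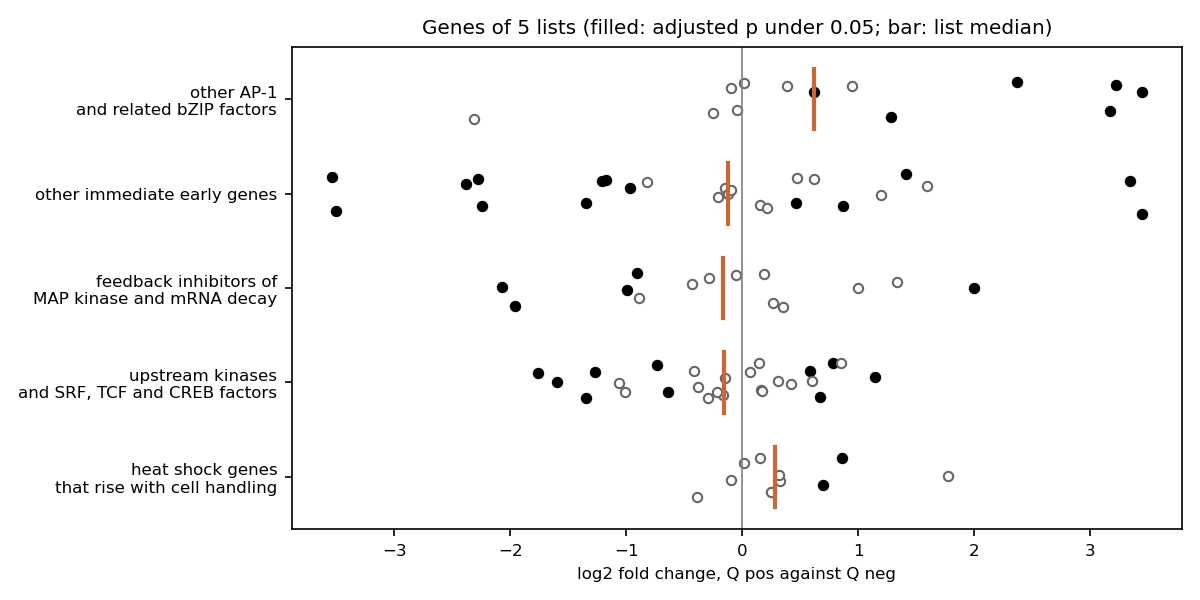
Log2 fold change of each tested gene in 5 lists, with filled points for an adjusted p under 0.05 and a bar at the list median. The AP-1 related list has 6 filled points, all to the right of 0, while the other immediate early genes have 5 to the right and 9 to the left.

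The gene whose pattern over the 6 libraries was most like each member's was sought among 14477 tested genes with a symbol, by the mean absolute difference of log2 CPM after centring each gene on its mean. The nearest gene was Slc39a11 for Fos (difference 0.0323), Repin1 for Jun (0.0427), Junb's was Ngdn (0.0358), and Jund's was Gm28042 (0.0471). For Egr2 it was Hspa9 (0.142), for Egr3 Pim2 (0.0501), for Egr1 Tomm6os (0.100), for Fosl2 Sema4a (0.0784) and for Ier2 Hic1 (0.0749). Among the members themselves, a far smaller set to search, the closest pairs were Jund and Ier2 (0.406) and Junb and Ier2 (0.474). With 6 libraries and 1 replicate apart, many genes can share such a pattern.

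**Figure D5:**
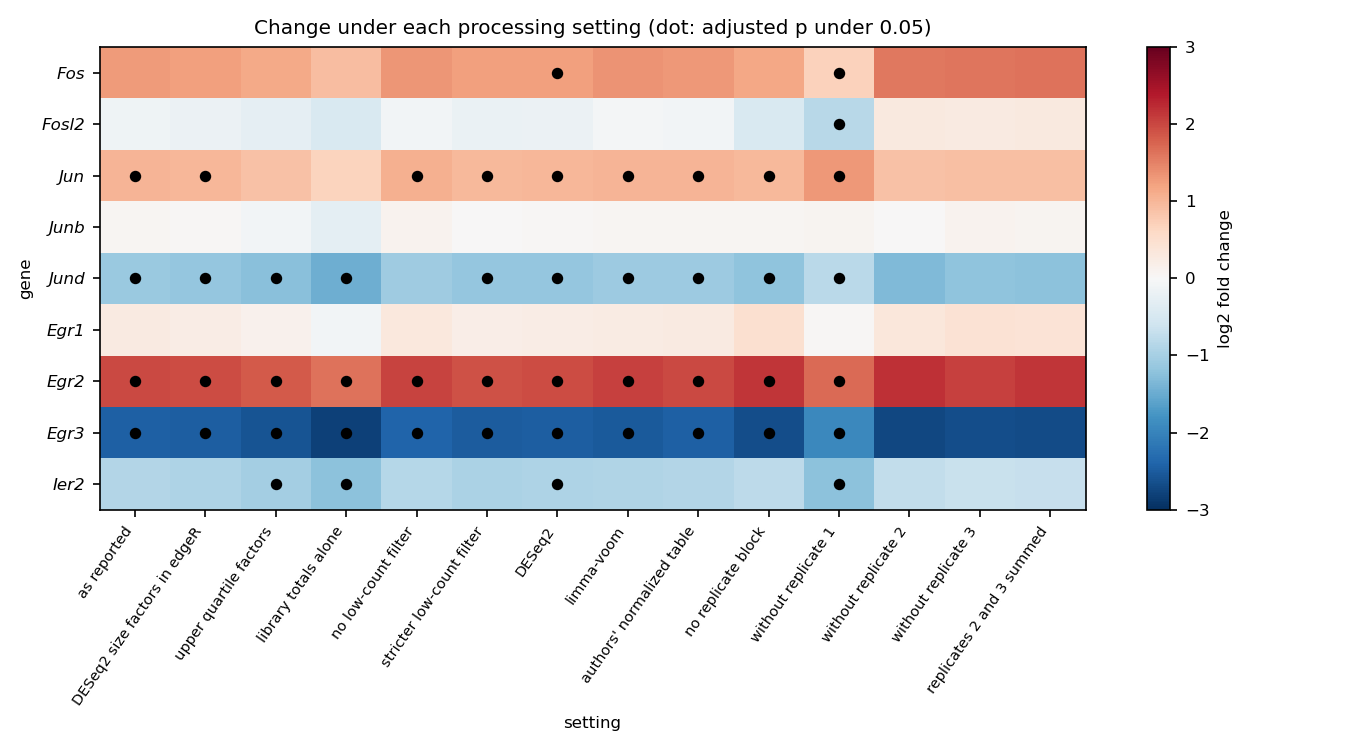
Log2 fold change of 9 members under the reported fit and 13 other settings, from blue (lower in Q pos) to red (higher), with a dot where the adjusted p was under 0.05. Egr2 and Egr3 carry a dot in every column but the last 3, and no member carries one there.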

How the data were processed

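RNA-seq of 3 Q pos and 3 Q neg libraries was analysed from the deposited raw table, which holds expected counts per gene as whole numbers. FastQC, Salmon and mm10 are named in the submitters' processing notes, without versions. The annotation release and the treatment of strand were not stated there. The authors' normalized table holds a signal whose formula is unknown, and it served only as an alternative, as log2(value + 1). GENCODE M21, of the same assembly as mm10, filled 5210 symbols and gave coordinates and exon lengths.

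Genes passing filterByExpr (at least 10 counts, total at least 15) were scaled by TMM and tested with edgeR 4.0.16 (R 4.3.3), with adjusted p over 14605 genes and a threshold of 0.05. Standard errors came from the F statistic. Log2 CPM within pairs used a prior count of 2. The replicate block follows the design text, which names the replicates as paired. Deviations of same-numbered libraries correlated at 0.198, 0.0769 and 0.158 in pairs 1, 2 and 3. The highest correlation across groups with a library of another number was -0.114, 0.147 and 0.147. Pair 2 thus matched another number better than its own, so the data alone did not settle the pairing.

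Members and lists were chosen with earlier results of these data known. Genes outside the members were named by the 2 lowest p of each list among called genes, plus a preset group, with exceptions marked. The other genes that rose or fell in a list are named only to account for its count. The script was run on simulated data as a check of the code only. The simulated replicates differed alike, unlike replicate 1 here, so the behaviour of the test on these data was not checked. Alternatives were other scalings and filters, DESeq2 1.42.0, limma 3.58.1 (voom), no block, leave-one-out fits, and a sum of replicates 2 and 3. Figures used matplotlib 3.10.9.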

Additional observations from a re-analysis of the deposited data

How the results depend on the processing

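The counts of members called, 2 higher and 2 lower, moved with several settings. Under upper quartile scaling, and under library totals alone, 1 member was higher and 3 were lower (Ier2 added). With DESeq2 4 were higher (Fos and Fosb added) and 3 lower (Ier2 added), and with no low-count filter 1 was lower. Leaving out 1 replicate gave 0 to 3 higher and 0 to 4 lower. With replicates 2 and 3 summed 0 and 0 were called. Of all 14605 tested genes, 2707 were higher and 2384 lower as reported, against 1572 and 3316 with library totals alone. Upper quartile factors gave 2162 and 2640. DESeq2 gave 3421 and 3665, so it called more of all genes as well as more members. With no low-count filter 2492 were higher and 2010 lower of 21847. Leaving out 1 replicate gave 0 to 5538 higher and 0 to 5352 lower over all genes. Summing replicates 2 and 3 gave 0 and 0, with 4488 genes at an unadjusted p under 0.05 by edgeR, and 4209 had one without replicate 3. Fitted signs turned for members that were not called. Junb stood at -0.0818 under upper quartile scaling and -0.29 with library totals, Egr1 at -0.0805 with library totals, Fosb, whose fit rests on its zeros and is not read as a change, at -0.46 without replicate 1 (-0.46 to 11.9 over the 3), and Fosl2 at -0.84 to 0.30 with 1 replicate left out and 0.30 with replicates summed. Of other named genes, Nab1 turned to -0.032 with library totals, and Klf4 ran from -0.38 to 1.33 and Batf3 from -0.28 to 1.43 with 1 replicate left out. Batf3 was -0.17 without the replicate block and -0.23 with replicates summed. The causes were not tested. Without the replicate block all 10 members kept their direction and their side of the threshold (2 higher, 2 lower). Of 18 other named genes Hspe1 and Myc lost the call without it and Fosl1 gained one (adjusted p = 0.0152). The effect of depth on the calls was not tested.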
